A study of Mus musculus with 16 samples.

Results

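The genes described here are 51 genes that act in mitosis and cytokinesis, the steps by which a cell separates its copied chromosomes and then divides. They were listed by gene name, and where several probe sets measured a gene, the brightest one on average over the 16 arrays stood for it. A named probe set was present for 49 of the 51, out of 17097 named genes in all, and Ccnb1 and Nuf2 were not analysed here. RNA was measured on Affymetrix arrays in epithelial cells sorted from the mammary glands of 4 female mice aged 10 weeks and 2 days, of the strain labelled C57BL/6J 129. The wild-type group was 2 mice of genotype Sox2-Cre +/+ ; Cpeb2 +/+ and the knockout group 2 mice of genotype Sox2-Cre +/+ ; Cpeb2 -/-, so the controls are labelled Sox2-Cre +/+ as well, and no group without it was analysed here. Sox2-Cre is active in the early embryo, so a deletion made with it is not limited to the mammary epithelium. Each mouse gave 4 populations: non-clonogenic luminal cells (Epcam high, CD49f low, Sca1+, CD49b-), ductal progenitors (Sca1+, CD49b+), alveolar progenitors (Sca1-, CD49b+) and myoepithelial cells (Epcam low, CD49f high). Each of the 8 groups therefore had 2 arrays, and this number limits the precision.

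In dividing cells the mitosis genes are transcribed as one wave that peaks in G2 and M phase and is low in resting cells. The wave starts after DNA synthesis, when cyclins A and B with Cdk1 commit the cell to mitosis, and it supplies the kinetochores that hold chromosomes, the checkpoint that delays their separation, the motors of the spindle and the ring that pinches the cell apart. The study's title asks how the RNA-binding protein CPEB2, which acts on the poly(A) tails and the translation of messenger RNAs, regulates RANKL and mammary development. RANKL is a cytokine known to drive proliferation of mammary epithelium. In sorted bulk samples, fewer cells in mitosis and less mitotic RNA per cell cannot be told apart.

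The values are log2 expression values, in which 1 unit is a factor of 2, and array medians lay between 6.35 and 6.40. The lower quartile of all values was 5.13, and a difference that rests mostly on levels under it is given also with those levels raised to it. Replicate arrays of a group correlated across probe sets at r = 0.975 to 0.991. Luminal markers averaged between 11.65 and 12.23 on the luminal arrays and between 9.02 and 9.64 on the myoepithelial arrays, while myoepithelial markers averaged between 11.999 and 12.23 on the latter and between 6.09 and 7.09 on the former. The leukocyte markers averaged between 5.59 and 6.11 on all arrays. Cpeb2 itself stood at 8.33 and 8.66 in wild-type mice 1 and 2 and at 6.42 and 7.67 in knockout mice 1 and 2 in non-clonogenic luminal cells, and at 7.88 and 8.004 against 6.39 and 7.35 in ductal progenitors. In alveolar progenitors it stood at 5.52 and 5.53 against 5.45 and 4.81, and in myoepithelial cells at 5.41 and 6.03 against 5.25 and 4.71, near the lower quartile on both sides. The mean difference over the populations was -0.92 ± 0.21 (log2, knockout minus wild type, with the standard error of the fit, limma adjusted p = 0.0201). Cpeb2 was not called in any single population (limma adjusted p = 0.0933, 0.113, 0.925 and 0.449 in the order above). The sources used here do not place its probe set relative to the deleted part of the gene.

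Mitosis and cytokinesis genes were lower in the Cpeb2 knockout. Averaged over the 4 populations, 45 of the 49 fell and none rose (limma, Benjamini-Hochberg adjusted p under 0.05 over all genes), where 7.04% of all genes fell. The list was chosen with earlier results of these data known, so its comparison with all genes is a description and not a test. The median difference over the 49 genes was -1.59, about 3-fold, against 0.02 over all 17097 genes. The 4 genes that were not called were Mad2l1, Aurka, Smc2 and Kif2c. The mean effect averages 4 arrays from each mouse. With 1 mean value per mouse, an alternative chosen after seeing the data, 33 of the 49 were called, and 440 of all 17097 genes fell. Leaving out 1 knockout mouse gave fewer calls in the mean effect, in the list and over all genes, and the fewest without knockout mouse 2.

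The fall was seen most often in the Sca1+ luminal populations. In ductal progenitors 28 of the 49 genes fell, against 4.35% of all genes, and in non-clonogenic luminal cells 17 fell, against 1.73%. With values under the lower quartile raised to it before the fit these counts were 5 and 1, and without the mean-variance trend the second was 8, while the medians kept their sign; the cause was not tested. In alveolar progenitors 1 gene, Zwilch, fell (0.351% of all genes), and with the parent pair as a block it was not called. In myoepithelial cells 0 genes were called by limma (0.567% of all genes fell), although 24 of the 49 had an unadjusted p under 0.05. Over all 17097 genes, 2434 had such a p there. The median differences were -2.05 in non-clonogenic luminal cells, -1.93 in ductal progenitors, -1.20 in alveolar progenitors and -1.16 in myoepithelial cells, while the medians of all genes lay between -0.03 and 0.08. Direction was shared more widely than the calls: both wild-type arrays lay above both knockout arrays for 48 of the 49 genes in non-clonogenic luminal cells, 46 in ductal progenitors, 38 in alveolar progenitors and 42 in myoepithelial cells. Of all genes, 22.1%, 22.5%, 23.4% and 24.0% did so in the same order. In all 4 populations together, 33 of the 49 mitosis genes did so, against 3.07% of all genes.

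**Figure D1:**
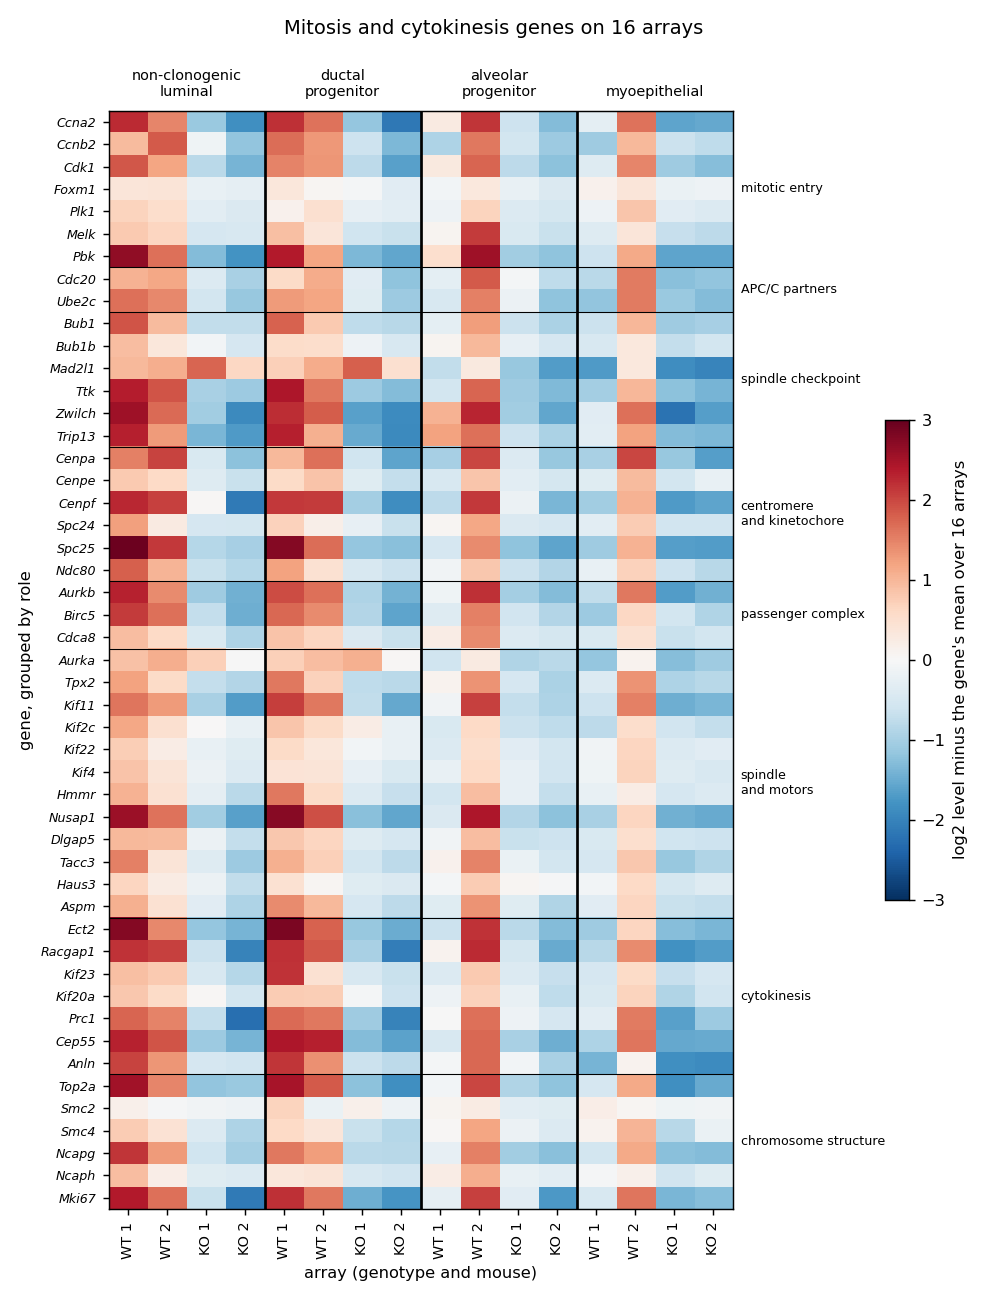
Heat map of the 49 genes (rows, grouped by role) on the 16 arrays (columns, by population, genotype and mouse), coloured by the log2 level minus the gene's mean over the 16 arrays. Wild-type arrays are red and knockout arrays blue for most genes, except that the alveolar progenitor and myoepithelial arrays of wild-type mouse 1 are pale or blue, and that Mad2l1 and Aurka follow the population.

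These counts depended on single mice, with 2 mice per group. A fit without 1 mouse leaves 1 array in some groups, and the number of all genes called changed with it as well. Without wild-type mouse 2 that number rose in both Sca1+ populations, and without wild-type mouse 1 it fell there. In alveolar progenitors and myoepithelial cells it rose without wild-type mouse 1. With either knockout mouse left out, no gene of the list was called in any single population, and fewer of all genes were called in each. The other knockout mouse then stood alone and was assumed to vary like the other groups. Calls in the list rose in both Sca1+ populations without wild-type mouse 2, and by less without wild-type mouse 1. In alveolar progenitors and myoepithelial cells the list gained calls mainly without wild-type mouse 1.

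Whether the knockout effect differed between populations was tested directly. The F test over the 4 populations called 0 of the 49 genes (0.667% of all genes). An unadjusted p under 0.05 was found for 1 of the 49, and for 2872 of all 17097 genes. The effect in the Sca1+ luminal populations minus that in the other 2 called 0 of the 49 as well (4.71% of all genes in either direction). At an unadjusted p under 0.05 there were 10 of the 49, and 4328 of all 17097 genes, a larger share. The median difference over the 49 was -0.75. Leaving out wild-type mouse 1 turned that median to 0.25, and leaving out wild-type mouse 2 gave -1.79. Without wild-type mouse 2 both tests called more genes, in the list and over all genes.

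A single level for the whole list, the mean over the 49 genes of the log2 value minus the gene's mean over all arrays, shows the same pattern array by array. In non-clonogenic luminal cells the level was 1.53 and 1.06 for wild-type mice 1 and 2 and -0.50 and -1.01 for knockout mice 1 and 2. In ductal progenitors it was 1.43 and 1.04 against -0.59 and -1.02. The genotypes lay well apart in both, by more than 1.5 log2 units between the nearest arrays. In alveolar progenitors it was -0.17 and 1.40 in the wild type against -0.53 and -0.92 in the knockout, and in myoepithelial cells -0.57 and 0.91 against -1.05 and -1.002. Here too each wild-type array lay above both knockout arrays of its population, but mouse 1 of the wild type was closer to the knockout mice than to its own replicate. Of the 8 wild-type arrays, 7 lay above every knockout array, and the eighth, the myoepithelial array of wild-type mouse 1, lay below 2 of them.

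**Figure D2:**
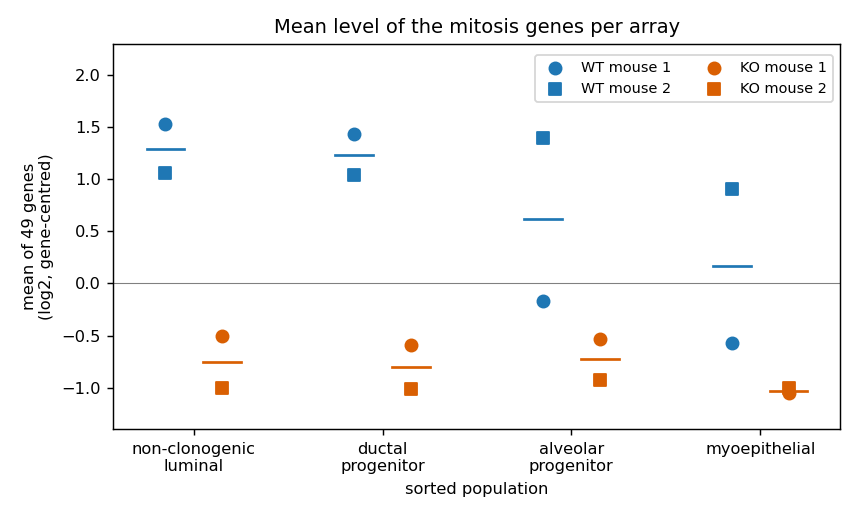
Mean gene-centred log2 level of the 49 genes (y axis) on each array, by sorted population (x axis), with wild type in blue and knockout in orange, circles for mouse 1, squares for mouse 2 and a bar for the group mean. The knockout arrays lie between -0.50 and -1.05 in every population, and the wild-type arrays range from -0.57 to 1.53.

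Markers of other cells and of RNA quality moved with genotype in some populations. Markers of hormone-sensing luminal cells, 8 measured genes, averaged 10.81 and 10.88 in the wild type and 11.57 and 11.62 in the knockout in non-clonogenic luminal cells, and 10.50 and 10.71 against 11.70 and 11.58 in ductal progenitors, where 2 and 4 of the 8 rose. The 9 alveolar luminal markers averaged 9.84 and 9.20 against 8.70 and 9.07 in ductal progenitors, where 3 fell. The 7 fibroblast markers averaged 8.24 on the ductal progenitor array of wild-type mouse 1 and between 6.28 and 6.75 on the other 3, and Dcn, a matrix proteoglycan, fell there (-1.84 ± 0.43). In alveolar progenitors, where wild-type mouse 1 had the lower mitosis level, its hormone-sensing markers averaged 8.45 against 7.43 in wild-type mouse 2, and those of the knockout mice 8.19 and 8.22. In myoepithelial cells the 8 endothelial markers averaged 6.23 and 6.26 in the wild type and 6.55 and 7.15 in the knockout. All 8 were higher there, 7 at an unadjusted p under 0.05, and Kdr, a VEGF receptor of endothelium, rose (0.61 ± 0.13, limma adjusted p = 0.0495). The 2 red cell markers averaged 8.81 and 8.89 against 8.10 and 8.21 there with neither called. Of the 12 leukocyte markers there, 7 were lower and 5 higher, with a median of -0.03. The 1 called was Cd74, which fell (-1.19 ± 0.16, limma adjusted p = 0.00572). In ductal progenitors 11 of the 12 were higher, with a median of 0.14, and Csf1r rose (0.49 ± 0.09, limma adjusted p = 0.0155). The 3′ minus middle difference of the Actb control probe sets, a sign of RNA quality, was 0.12 and 0.27 in the wild type against 0.05 and 0.06 in the knockout in ductal progenitors. That of Gapdh was 0.60 and 0.39 against 0.15 and 0.12 there. In alveolar progenitors the Gapdh difference went the other way, at 0.14 and 0.18 against 0.49 and 0.23, and in the other 2 populations the genotypes overlapped for Gapdh. The part of these shifts in the fall of the mitosis genes was not tested.

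The roles of the genes were compared next, beginning with mitotic entry. Of the 7 measured genes of this group, all 7 fell in the mean of the populations, and 3 in each of the Sca1+ luminal populations. Ccna2, the cyclin A that partners Cdk2 and Cdk1 in S phase and G2, stood at 10.71 and 9.95 in the wild-type mice and 7.37 and 6.63 in the knockout mice in non-clonogenic luminal cells, and at 10.68 and 10.10 against 7.33 and 6.35 in ductal progenitors. It stood at 8.75 and 10.63 against 7.86 and 7.19 in alveolar progenitors and at 8.20 and 10.11 against 6.90 and 6.94 in myoepithelial cells. No knockout array reached the lowest wild-type array of any population, and the mean fall was -2.82 ± 0.35, or 7.06-fold (limma adjusted p = 0.00108). Cdk1, the kinase that drives entry into mitosis, fell by 2.25 ± 0.30 (limma adjusted p = 0.00153), and Pbk, a mitotic kinase, fell by 2.86 ± 0.35, with 5 of its 8 knockout values under the lower quartile and a difference of -2.70 when these were raised to it. Ccnb2, the other measured cyclin, was higher in knockout mouse 1 (6.91) than in wild-type mouse 1 (6.53) in alveolar progenitors. In myoepithelial cells it was higher in both knockout mice (6.81 and 6.69) than in wild-type mouse 1 (6.40), and its mean fall over populations was -1.59 ± 0.39 (limma adjusted p = 0.0243). Foxm1, a transcription factor that activates genes of G2 and M phase, had the smallest called fall of the 45, -0.47 ± 0.09 (limma adjusted p = 0.0092). All 16 values of its brightest probe set lay between 7.36 and 8.18, and its other probe sets gave mean differences of -0.54, -0.99 and -0.01. Plk1, the kinase that acts from centrosome maturation to cytokinesis, fell by 0.74 ± 0.15, and the kinase Melk by 1.22 ± 0.25.

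Cdc20 and Ube2c, the activator and the ubiquitin-conjugating enzyme of the anaphase-promoting complex, fell by 1.55 ± 0.37 and 1.73 ± 0.40 in the mean of the populations. Of 12 measured subunits of the complex itself, 2 fell in the mean (Anapc5, -0.63 ± 0.11, and Anapc11, -0.37 ± 0.09), and the median over the 12 was -0.15.

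Of the 6 spindle checkpoint genes, 5 fell in the mean and Mad2l1 was not called. Zwilch, a subunit of the complex that brings dynein and the checkpoint proteins to kinetochores, stood at 9.74 and 8.89 in the wild-type mice and 6.17 and 5.29 in the knockout mice in non-clonogenic luminal cells, and at 9.40 and 9.02 against 5.57 and 5.32 in ductal progenitors. It stood at 8.23 and 9.49 against 6.15 and 5.65 in alveolar progenitors and at 6.85 and 8.84 against 4.99 and 5.56 in myoepithelial cells. Every wild-type value lay above every knockout value over all 16 arrays, and the mean fall was -3.22 ± 0.31, or 9.33-fold (limma adjusted p = 0.000295). The fall was -3.59 ± 0.59 in non-clonogenic luminal cells, -3.76 ± 0.59 in ductal progenitors and -2.96 ± 0.59 in alveolar progenitors (limma adjusted p = 0.0473), and the difference in myoepithelial cells was -2.57 ± 0.59 (limma adjusted p = 0.0631). Trip13, the ATPase that disassembles the checkpoint complex, fell by 2.68 ± 0.26 in the mean (limma adjusted p = 0.000334), and Ttk, the kinase that starts checkpoint signalling, by 2.36 ± 0.35. Bub1 lay under the lower quartile on all 8 knockout arrays, and on 1 wild-type array, and its mean difference of -1.68 was -1.31 with these levels raised to the quartile. Bub1b fell by 0.81 ± 0.17.

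Mad2l1, which encodes the checkpoint protein MAD2, did not part the genotypes in the Sca1+ luminal cells. It stood at 10.11 and 10.23 in the wild-type mice and 10.90 and 9.77 in the knockout mice in non-clonogenic luminal cells, and at 9.86 and 10.25 against 10.93 and 9.61 in ductal progenitors. The genotypes overlapped in both, with knockout mouse 1 highest and knockout mouse 2 lowest, and the differences were 0.17 ± 0.60 and 0.21 ± 0.60 (limma adjusted p = 0.914 and 0.836). Without knockout mouse 1 they turned to -0.39 and -0.44. In alveolar progenitors Mad2l1 stood at 8.40 and 9.43 against 8.01 and 7.46, and in myoepithelial cells at 7.44 and 9.45 against 7.29 and 7.15, where both wild-type mice lay above both knockout mice and the differences of -1.18 ± 0.60 and -1.22 ± 0.60 were not called. Mad2l1 was the only one of the 49 genes measured higher in the knockout than in the wild type in any population mean.

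At centromeres and kinetochores, all 6 measured genes fell in the mean of the populations. Spc25, a subunit of the NDC80 complex that binds microtubules, stood at 9.92 and 9.09 against 6.11 and 5.97 in non-clonogenic luminal cells and at 9.72 and 8.65 against 5.81 and 5.73 in ductal progenitors. The falls there were -3.47 ± 0.67 and -3.41 ± 0.67, and the mean fall was -2.60 ± 0.35 (limma adjusted p = 0.00161). Its partners Ndc80 and Spc24 fell by 1.40 ± 0.20 and 1.01 ± 0.22. Cenpa, the histone variant that marks centromeres, fell by 2.05 ± 0.48, although in alveolar progenitors wild-type mouse 1 (6.41) lay between the knockout mice (7.02 and 6.28). Cenpf fell by 2.46 ± 0.48 and the kinesin Cenpe by 0.94 ± 0.22. The other probe set of Cenpe gave a mean difference of -2.51, and those of Cenpf gave -1.22 and -0.02.

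The chromosomal passenger complex corrects faulty attachments and later directs cytokinesis. Its kinase Aurkb fell by 2.57 ± 0.38 in the mean, its subunit Birc5 (survivin) by 1.89 ± 0.31 and its subunit Cdca8 (borealin) by 1.16 ± 0.19. Aurkb stood at 9.26 and 8.96 in the wild-type mice and 6.39 and 5.89 in the knockout mice in ductal progenitors, where all 3 genes fell. In non-clonogenic luminal cells 1 of the 3, Birc5, was called (-2.98 ± 0.59), and the difference of Aurkb was of similar size, -3.12 ± 0.73 (limma adjusted p = 0.0505). When all named probe sets were tested, the other probe sets of Aurkb and Cdca8 fell there by 4.46 and 3.36 (limma adjusted p = 0.0294 and 0.0438). That of Cdca8 fell by 2.63 in the mean of the populations.

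Of the 12 genes of the spindle and its motors, 10 fell in the mean, with the smallest median among the larger groups, -1.04. Nusap1, which bundles spindle microtubules, fell by 2.64 ± 0.39 with 6 of 8 knockout values under the lower quartile (-2.41 with these raised to it), and Kif11, the motor that separates spindle poles, fell by 2.34 ± 0.36. Kif11 stood at 9.21 and 8.71 against 6.39 and 5.61 in ductal progenitors and at 7.02 and 9.19 against 6.43 and 6.20 in alveolar progenitors. Tpx2, which activates Aurora A on the spindle, fell by 1.60 ± 0.28, while Kif22, Haus3 and Kif4 fell by 0.63 ± 0.16, 0.65 ± 0.16 and 0.74 ± 0.15. The other spindle genes that fell were Tacc3 (-1.39 ± 0.27), Aspm (-1.30 ± 0.25), Dlgap5 (-1.07 ± 0.17) and Hmmr (-1.02 ± 0.23). Kif2c, a microtubule-depolymerising kinesin, missed the threshold (-0.73 ± 0.22, limma adjusted p = 0.0509).

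Aurka, the Aurora A kinase, was not called either. It stood at 8.80 and 8.99 in the wild-type mice and 8.63 and 7.91 in the knockout mice in non-clonogenic luminal cells, and at 8.62 and 8.84 against 8.98 and 7.94 in ductal progenitors. In alveolar progenitors it stood at 7.32 and 8.17 against 7.01 and 7.11, and in myoepithelial cells at 6.75 and 8.01 against 6.63 and 6.84. Knockout mouse 1 was the highest of the 4 ductal progenitor arrays. The mean difference over populations was -0.56 ± 0.22 (limma adjusted p = 0.134), and the ductal progenitor difference was -0.27 ± 0.42, which turned to 0.25 without knockout mouse 2.

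All 7 cytokinesis genes fell in the mean, with a median of -2.35, 6 in ductal progenitors and 4 in non-clonogenic luminal cells. Racgap1 and Kif23 form the centralspindlin complex at the spindle midzone and Ect2, which it recruits, activates RhoA for the contractile ring. Racgap1 stood at 9.55 and 9.45 against 6.75 and 5.39 in non-clonogenic luminal cells, 9.58 and 9.24 against 6.42 and 5.32 in ductal progenitors, 7.50 and 9.64 against 6.87 and 5.87 in alveolar progenitors and 6.56 and 8.80 against 5.57 and 5.71 in myoepithelial cells. The genotypes were apart in each population, and Racgap1 fell by 2.80 ± 0.40, or 6.98-fold, in the mean (limma adjusted p = 0.00201). Ect2 and Cep55, the latter needed for the final cut, lay under the lower quartile on all 8 knockout arrays and on 2 and 1 of the wild-type arrays. Their mean differences of -2.48 and -2.72 were -1.72 and -2.09 with these levels raised to the quartile. Kif23 lay there on 7 of the 8, and its mean difference of -1.19 was then -1.05 and no longer called (limma adjusted p = 0.0514, against 0.017). Prc1, which bundles the midzone microtubules, fell by 2.35 ± 0.35, Anln, a scaffold of the contractile ring, by 1.82 ± 0.30, and the midzone kinesin Kif20a by 0.91 ± 0.20.

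Among the genes of chromosome structure, 5 of 6 fell in the mean. Top2a, the topoisomerase that untangles sister chromosomes, stood at 9.62 and 8.56 in the wild-type mice and 5.91 and 5.99 in the knockout mice in non-clonogenic luminal cells, and at 9.57 and 8.92 against 5.87 and 5.25 in ductal progenitors. It stood at 7.003 and 9.09 against 6.18 and 5.88 in alveolar progenitors and at 6.58 and 8.24 against 5.26 and 5.57 in myoepithelial cells. Every wild-type value was above every knockout value, and the mean fall was -2.71 ± 0.34, or 6.54-fold (limma adjusted p = 0.0011). The other probe sets of Top2a gave mean differences of -0.35 and 0.14, and neither was called when all named probe sets were tested. Mki67, the proliferation antigen Ki-67, stood at 10.62 and 9.91 against 7.58 and 6.14 and at 10.45 and 9.83 against 6.79 and 6.47 in the same first 2 populations, and at 7.98 and 10.30 against 7.91 and 6.53 in alveolar progenitors. There wild-type mouse 1 and knockout mouse 1 were within 0.1 of each other, and the mean fall over populations was -2.68 ± 0.42 (limma adjusted p = 0.00299). The condensin genes Ncapg, Smc4 and Ncaph fell by 2.03 ± 0.30, 1.12 ± 0.20 and 0.82 ± 0.14.

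Smc2, the condensin subunit that pairs with Smc4, showed how far the choice of probe set matters. Its brightest probe set stood at 7.45 and 7.25 against 7.17 and 7.13 in non-clonogenic luminal cells, with a mean difference of -0.30 ± 0.12 (limma adjusted p = 0.134). Its 3 other probe sets fell by 2.68, 3.22 and 2.00 in the mean when all named probe sets were tested (limma adjusted p = 0.00072, 0.000553 and 0.00168). Over the list, 27 of the 49 genes had further probe sets, 40 in all. In the mean of the populations, 37 of these 40 were lower in the knockout, 28 were called lower and 0 were called higher by limma. In ductal progenitors a probe set of Top2a was called higher (0.31, limma adjusted p = 0.0391). The sources used here do not place the probe sets within the transcripts.

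**Figure D3:**
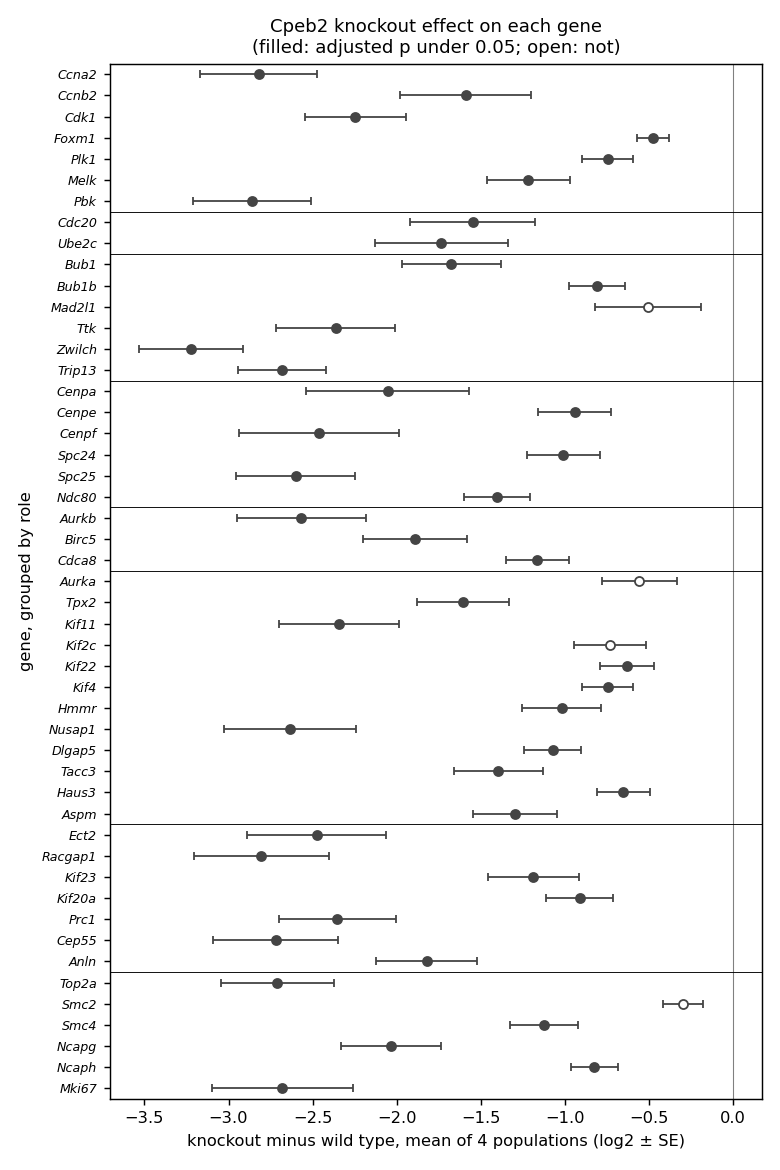
Knockout minus wild-type difference averaged over the 4 populations for each of the 49 genes (x axis, log2, point with the standard error of the fit), grouped by role, with filled points for adjusted p under 0.05 and open points for the rest. All points lie below 0, from -3.22 for Zwilch to -0.30 for Smc2, and the 4 open points are Mad2l1, Aurka, Kif2c and Smc2.

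**Figure D4:**
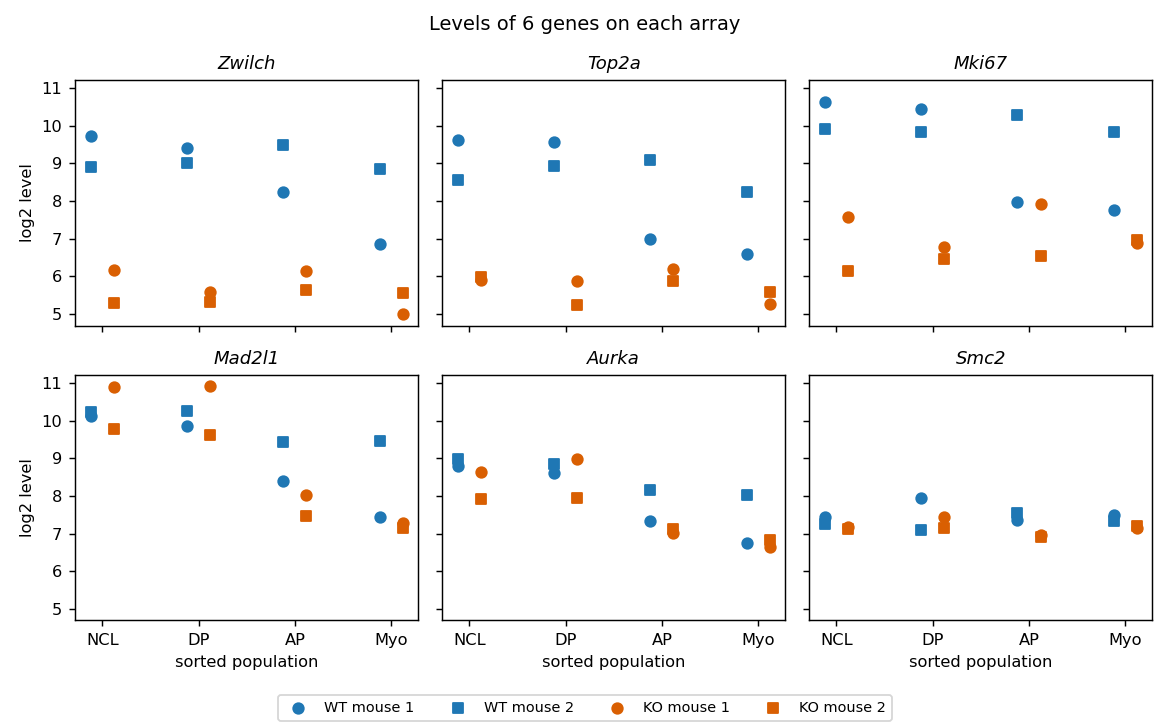
Log2 level (y axis) of 6 genes on each array, by sorted population (x axis: NCL, non-clonogenic luminal; DP, ductal progenitor; AP, alveolar progenitor; Myo, myoepithelial), with wild type in blue and knockout in orange, circles for mouse 1 and squares for mouse 2. Zwilch and Top2a part by genotype on every array, Mad2l1 and Aurka are higher in NCL and DP than in AP and Myo within each mouse, and the brightest probe set of Smc2 stays between 6.91 and 7.95.

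Genes of this wave are known to be switched by the DREAM and MuvB complexes through a promoter element called CHR, often beside CCAAT boxes bound by NF-Y. Since the genes moved together, their promoters were read from a RefSeq table of build GRCm38.p6, which gave 44 promoters of 300 bases (250 before the transcription start and 50 after it) for 41 of the 51 genes. The CHR letters TTTGAA, searched on both strands, were in 72.7% of these promoters and in 17.9% of all 32851 in the table. CCAAT, on both strands, was in 70.5% against 37.4%, and both elements together in 61.4% against 6.95%. The E2F-like letters TTGGCGC were in 13.6% against 2.45%, and TTCCCGC in 4.55% against 4.60%. Of the 41 CHR matches in these promoters, 75.6% began within 50 bases of the start, against 25.3% of the matches in all promoters.

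The promoters of 5 genes are printed to set 3 that fell strongly beside 2 that were not called. Racgap1, Top2a and Trip13 had the largest fitted mean falls among genes with 1 promoter in the table, and the others are Aurka and Mad2l1. Each is written 5′ to 3′ on the gene's strand, with matches to TTTGAA and CCAAT, or to their reverse complements, in capitals.
Racgap1 (chr15:99651607-99651906, minus strand): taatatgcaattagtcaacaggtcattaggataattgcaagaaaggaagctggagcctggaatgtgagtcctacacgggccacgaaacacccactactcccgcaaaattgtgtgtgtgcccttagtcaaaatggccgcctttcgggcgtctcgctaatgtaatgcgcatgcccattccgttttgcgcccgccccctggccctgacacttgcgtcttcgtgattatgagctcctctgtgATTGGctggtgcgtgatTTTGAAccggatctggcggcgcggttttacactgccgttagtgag
Top2a (chr11:99024140-99024439, minus strand): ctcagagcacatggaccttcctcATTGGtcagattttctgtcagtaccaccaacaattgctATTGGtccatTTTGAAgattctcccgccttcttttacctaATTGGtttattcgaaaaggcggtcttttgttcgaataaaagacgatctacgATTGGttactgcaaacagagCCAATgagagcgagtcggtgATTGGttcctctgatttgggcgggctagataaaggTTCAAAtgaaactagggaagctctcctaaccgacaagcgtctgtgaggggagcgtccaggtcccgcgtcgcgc
Trip13 (chr13:73937718-73938017, minus strand): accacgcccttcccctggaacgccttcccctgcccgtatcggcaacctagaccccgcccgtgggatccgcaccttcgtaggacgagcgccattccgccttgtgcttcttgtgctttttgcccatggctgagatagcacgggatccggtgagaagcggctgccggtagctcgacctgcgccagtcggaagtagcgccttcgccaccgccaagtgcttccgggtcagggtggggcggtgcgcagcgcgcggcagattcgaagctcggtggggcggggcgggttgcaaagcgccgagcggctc
Aurka (chr2:172370521-172370820, minus strand): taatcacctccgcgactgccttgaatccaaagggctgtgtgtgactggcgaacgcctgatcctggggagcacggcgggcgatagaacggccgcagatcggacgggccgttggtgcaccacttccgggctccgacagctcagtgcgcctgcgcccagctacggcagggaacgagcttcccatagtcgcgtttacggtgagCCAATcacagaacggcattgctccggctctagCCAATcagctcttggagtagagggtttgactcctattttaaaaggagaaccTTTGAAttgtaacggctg
Mad2l1 (chr6:66534971-66535270, plus strand): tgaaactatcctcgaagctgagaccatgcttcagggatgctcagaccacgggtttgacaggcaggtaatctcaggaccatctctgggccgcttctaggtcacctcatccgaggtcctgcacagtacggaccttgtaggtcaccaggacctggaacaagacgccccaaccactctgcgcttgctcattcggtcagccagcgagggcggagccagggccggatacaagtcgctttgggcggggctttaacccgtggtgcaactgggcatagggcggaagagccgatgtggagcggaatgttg

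The Top2a window holds 2 CHR matches and 6 CCAAT matches, that of Racgap1 1 of each, and that of Aurka 1 and 2. Trip13 and Mad2l1 hold no match to TTTGAA or CCAAT on either strand. Trip13 fell without such a match in this window, and Aurka, with both, was not called. Only the letters TTTGAA were searched for the CHR, and the Trip13 window holds TTCGAA, which was not counted. Among the 39 measured genes with a promoter in the table, the 29 with a TTTGAA match had a median knockout difference of -1.73 (from -2.80 to -0.30). The 10 without this match had -1.30 (from -2.68 to -0.50). Zwilch, Pbk and Ccna2, whose mean falls were larger than any of these, are not among the 39.

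The 2 wild-type mice had the mitosis genes high in different populations. In alveolar progenitors all 49 genes were higher in wild-type mouse 2 than in wild-type mouse 1, with a median difference of 1.47 and 37 genes past 1 log2 unit, where 1.13% of all genes were. In myoepithelial cells 48 of the 49 were higher in mouse 2, with a median of 1.60 and 34 genes past 1 unit (3.86% of all genes). In the Sca1+ populations the order was the opposite, and smaller. In non-clonogenic luminal cells 43 of the 49 were lower in mouse 2 (median -0.48), and in ductal progenitors 42 (median -0.34), with 5 and 6 genes past 1 unit. The medians over all genes lay between -0.01 and 0.08. With 1 mouse against 1 these differences have no test.

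Cenpa had the widest gap in both populations. It stood at 6.41 in wild-type mouse 1 and 9.42 in wild-type mouse 2 in alveolar progenitors, and at 6.44 and 9.43 in myoepithelial cells. Nusap1 stood at 5.84 and 8.69 in alveolar progenitors, and Ube2c at 7.33 and 10.08 in myoepithelial cells. The myoepithelial level of Ube2c in wild-type mouse 1 lay between those of the 2 knockout mice (7.40 and 7.21). Zwilch and Trip13 differed less, at 8.23 and 9.49 and 7.95 and 8.40 in alveolar progenitors of wild-type mice 1 and 2.

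**Figure D5:**
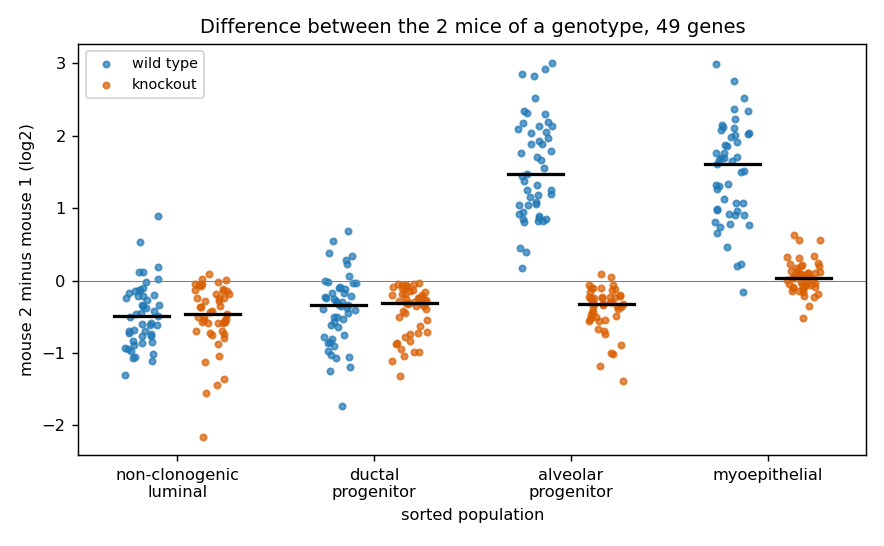
Log2 level in mouse 2 minus mouse 1 of the same genotype (y axis) for each of the 49 genes, by sorted population (x axis), with wild type in blue, knockout in orange and a black bar at the median. The wild-type medians are -0.48 and -0.34 in the Sca1+ luminal populations and 1.47 and 1.60 in the other 2, and the knockout medians lie between -0.46 and 0.03.

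The knockout mice differed less from each other in the populations where the wild-type mice were apart. In their alveolar progenitors 47 of the 49 genes were lower in mouse 2, with a median of -0.32 and 3 genes past 1 unit, and in their myoepithelial cells 29 were higher and 20 lower, with a median of 0.03 and 0 past 1 unit. Whether the 2 genotypes differ in this spread was not tested. In their Sca1+ populations mouse 2 was again the lower, for 46 genes in non-clonogenic luminal cells and all 49 in ductal progenitors. The largest single gap was Cenpf in non-clonogenic luminal cells, at 7.31 and 5.16 in knockout mice 1 and 2.

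The labels give the same father and mother to mouse 1 of each genotype and the same to mouse 2 of each, so the knockout can be compared with the wild type within each pair of parents. In non-clonogenic luminal cells the median over the 49 genes was -1.90 in the first pair and -1.87 in the second, and in ductal progenitors -1.99 and -1.76. In alveolar progenitors it was -0.34 in the first pair, with 38 of the 49 lower, and -2.30 in the second, with all 49 lower. In myoepithelial cells it was -0.41, with 45 lower, and -1.99, with all 49 lower. In the first pair 4 genes were past 2-fold lower in each of these 2 populations, against 46 and 41 in the second. Each pair is 1 mouse against 1, so the difference between pairs has no test, and the first pair holds wild-type mouse 1, whose low levels in these 2 populations are given above.

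In the wild type, the list was lower in myoepithelial cells than in the Sca1+ populations for most genes, and fewer passed the test. 0 of 49 were called by limma between the 2 Sca1+ luminal populations (0.819% of all genes were), with 0 at an unadjusted p under 0.05 and a median difference of 0.10. Myoepithelial cells had lower values than non-clonogenic luminal cells for 48 of the 49 genes, with a median of -0.9998. Of the 49, 22 had an unadjusted p under 0.05, against 7826 of all 17097 genes. The number called was 12 (35.6% of all genes called in either direction). Against ductal progenitors 45 were lower, with a median of -1.05. Here 20 had an unadjusted p under 0.05, against 7861 of all genes, and 9 were called (34.7%). In both comparisons these shares were no larger in the list than over all genes. Anln was called in both, at -2.32 ± 0.56 and -2.40 ± 0.56 (limma adjusted p = 0.00674 and 0.00627). Non-clonogenic luminal cells had higher values than alveolar progenitors for 44 of the 49, with a median of 0.63, and Spc25 was called higher (2.08 ± 0.66, limma adjusted p = 0.0448), the 1 gene called there (19.1% of all genes), and was not called with the parent pair as a block. Between ductal and alveolar progenitors, and between myoepithelial cells and alveolar progenitors, 0 of 49 were called by limma (12.6% and 23.1% of all genes). In each, 4 had an unadjusted p under 0.05, against 4432 and 6153 of all 17097 genes. The medians were 0.70 (ductal minus alveolar) and -0.38 (myoepithelial minus alveolar). These counts turned on single mice. In the comparisons given next, fewer of all genes were called with any 1 mouse left out than in the full fit. Leaving out wild-type mouse 2 raised the calls in the list for myoepithelial cells, and for alveolar progenitors, against each Sca1+ population. Leaving out wild-type mouse 1 lowered them for myoepithelial cells and raised them for alveolar progenitors. Leaving out either knockout mouse gave no more calls in the list than the full fit in any of these comparisons.

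In the knockout, 2 genes of the list differed between populations, Mad2l1 and Aurka. Non-clonogenic luminal cells minus alveolar progenitors gave 2.60 ± 0.59 for Mad2l1 (limma adjusted p = 0.00824), and myoepithelial minus non-clonogenic luminal cells gave -3.11 ± 0.59 (limma adjusted p = 0.00135). Ductal minus alveolar progenitors gave 2.53 ± 0.59, and myoepithelial cells minus ductal progenitors -3.05 ± 0.59. The same ductal minus alveolar difference was 1.39 ± 0.41 for Aurka. Its level in myoepithelial cells was lower than in either Sca1+ population, by -1.53 ± 0.41 against non-clonogenic luminal cells and -1.72 ± 0.41 against ductal progenitors. No other gene of the list was called between any of the 4 knockout populations, where 18.3%, 16.6%, 32.1% and 31.0% of all genes were called in these 4 comparisons. Between the 2 Sca1+ populations, and between myoepithelial cells and alveolar progenitors, 0 of 49 were called by limma (0.234% and 23.5% of all genes), with 0 and 1 at an unadjusted p under 0.05. Leaving out knockout mouse 1 left 0 calls in each of these 6 comparisons. Leaving out knockout mouse 2 left 2 for myoepithelial cells against ductal progenitors, 1 against non-clonogenic luminal cells and 0 in the others, and leaving out either wild-type mouse gave between 0 and 5.

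Genes next to the list in the cell cycle were compared in the same fit. Of 66 other mitosis genes, 46 fell and 0 rose in the mean of the populations (median -0.73), 28 in ductal progenitors, 17 in non-clonogenic luminal cells and 0 in the other 2 by limma. In alveolar progenitors 32 of the 66 had an unadjusted p under 0.05 (1624 of all 17097 genes), and in myoepithelial cells 20 (2434 of all genes). Among the lowest p in the mean were Oip5, which helps load CENP-A (-0.54 ± 0.05), Plk4, the kinase of centriole duplication (-2.06 ± 0.24), Cdca5 (sororin), which protects cohesion (-2.27 ± 0.27), and the kinetochore gene Cenpk (-2.55 ± 0.33). Of 11 genes of the DREAM and MuvB complexes, 5 fell in the mean. Mybl2, the B-Myb that joins MuvB to activate G2 and M phase genes, fell by 1.19 ± 0.11 (limma adjusted p = 0.000295), and in alveolar progenitors, where wild-type mice stood at 7.01 and 7.34 and knockout mice at 5.36 and 5.32, by 1.84 ± 0.22 (limma adjusted p = 0.00282). Rbl1, which encodes p107, fell by 1.54 ± 0.20.

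DNA synthesis genes, which are expressed ahead of mitosis, fell in each of the populations. Of 36 measured, 33 fell in the mean (median -1.56), 23 in ductal progenitors, 15 in non-clonogenic luminal cells, 9 in alveolar progenitors and 5 in myoepithelial cells. Mcm5, a subunit of the replicative helicase, stood at 11.68 and 11.39 in the wild-type mice and 7.81 and 7.91 in the knockout mice in alveolar progenitors, and at 9.56 and 10.55 against 6.82 and 7.0 in myoepithelial cells. It fell by 3.67 ± 0.47 and 3.15 ± 0.47 there (limma adjusted p = 0.00442 and 0.0112). The wild-type mice were closer to each other in alveolar progenitors for this list than for the mitosis genes, with a median of mouse 2 minus mouse 1 of 0.20 and 1 of 36 genes past 1 log2 unit, against 1.47 and 37 of 49. In both Sca1+ populations all 36 were lower in wild-type mouse 2, with medians of -1.002 and -0.95. Wild-type mouse 1 thus had DNA synthesis genes near the level of mouse 2 in alveolar progenitors, and mitosis genes far below it. Whether the 2 lists differ in this was not tested.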

How the data were processed

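Per the labels' protocols, total RNA of freshly sorted cells (15 ng) was amplified as whole transcriptome, and cDNA (8 µg) was labelled with biotin and hybridised to Affymetrix arrays. The authors deposited log2 values for 45141 probe sets, and RMA and limma are named in the submitters' processing notes, with neither role nor version. Background correction and any batch step are not stated. Of the probe sets, 28898 carried 1 gene symbol, 551 several, 15588 none and 104 were controls, and the brightest probe set of each named gene gave 17097 genes.

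All 16 arrays were fitted as 8 groups with limma 3.58.1 in R 4.3.3 (statmod 1.5.0), with the mouse as a random block (correlation 0.0383) and a mean-variance trend. P-values were adjusted over all genes by Benjamini-Hochberg, with a threshold of 0.05. The fit was tested on simulated data with independent noise on each array and known shifts in knockout non-clonogenic luminal cells. These data held no mouse effect, so the mouse block was not tested. The 2 mice per genotype are separate animals, and their number limits the precision. Each knockout mouse shares its parents with 1 wild-type mouse, per the labels, so parent pair was fitted as an alternative block. Deviations of same-parent arrays of a population correlated at -0.0432 to 0.0737, and those of 1 mouse across populations at -0.171 to 0.577.

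The members and gene lists were chosen with earlier results of these data known. The text may name any member, Cpeb2, and from each other gene list up to 4 called genes with the smallest p. Alternatives changed the block, trend, array weights, probe-set rule, scaling, filter, floor, arrays fitted and mice. Promoters were taken from RefSeq.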

Additional observations from a re-analysis of the deposited data

How the results depend on the processing

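Over the alternatives, 422 values of the comparisons kept their direction and their side of the threshold, 44 became weaker, 37 stronger, 17 moved and 1 reversed. For single genes these were 1708, 255, 91, 0 and 4. With parent pair as the replicate block, calls in the mean effect went from 45 to 46, and those in alveolar progenitors and in wild-type non-clonogenic luminal cells against alveolar progenitors from 1 to 0; no other call count moved by over 1.5 times. Calls in alveolar progenitors were also 0 without trend, with the mean of probe sets, with all probe sets tested, with arrays centred on their medians and with the floor, and 5 with array weights. In non-clonogenic luminal cells calls went from 17 to 8 without trend and 1 with the floor, in ductal progenitors from 28 to 5 with the floor, and the medians with the mean of probe sets were -1.63 and -1.62. Between wild-type non-clonogenic luminal cells and alveolar progenitors calls were 0 without trend, with the floor and with only the arrays compared, and 3 with array weights. For wild-type myoepithelial against non-clonogenic luminal cells they went from 12 to 7 without trend, 4 with array weights, 4 with the floor and 3 with only the arrays compared, and against ductal progenitors from 9 to 1, 1 and 3 with the last 3 of these. In the knockout, calls between alveolar progenitors and non-clonogenic luminal cells went from 1 to 2 with array weights and 4 with only the arrays compared, and for ductal against alveolar progenitors from 2 to 1 with the floor and 5 with only the arrays compared. Using only the arrays compared gave 7 calls for knockout myoepithelial against non-clonogenic luminal cells, 7 against ductal progenitors and 8 against alveolar progenitors; that alternative had no mouse block, since its correlation could not be fitted on 4 arrays. The causes were not tested.

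Leaving out 1 mouse at a time gave 0 to 42 calls and medians of -2.24 to -1.60 for the knockout effect in non-clonogenic luminal cells, 0 to 44 and -2.14 to -1.62 in ductal progenitors, 0 to 38 and -2.09 to -0.50 in alveolar progenitors, 0 to 41 and -1.96 to -0.38 in myoepithelial cells, and 8 to 46 calls in the mean. It gave 0 to 24 calls for the F test, and 0 to 40 with medians of -1.79 to 0.25 for the Sca1+ populations against the others, the last value being the 1 that reversed. In the wild type it gave 0 to 1 calls between the Sca1+ populations. It gave 0 to 35 with medians of -0.32 to 1.59 for non-clonogenic luminal cells minus alveolar progenitors, 0 to 27 and -0.36 to 1.49 for ductal against alveolar progenitors, 2 to 44 and -2.04 to -0.033 for myoepithelial against non-clonogenic luminal cells, 1 to 41 and -2.01 to -0.054 against ductal progenitors, and 0 to 8 calls against alveolar progenitors. In the knockout it gave 0 to 5 calls between alveolar progenitors and non-clonogenic luminal cells, 0 to 4 for ductal against alveolar progenitors, 0 to 5 and medians of -0.41 to 0.051 for myoepithelial against non-clonogenic luminal cells, 0 to 5 calls against ductal progenitors, and 0 to 2 and -0.45 to -0.056 against alveolar progenitors. Among single genes, the knockout difference of Mad2l1 ran from -0.39 (without knockout mouse 1) to 0.73 in non-clonogenic luminal cells, and in ductal progenitors from -0.44 (likewise) to 0.87. In ductal progenitors that of Aurka ran from -0.79 to 0.25 (without knockout mouse 2) and that of Smc2 from -0.66 to 0.20 (without wild-type mouse 1). Values under the lower quartile limit the size of the falls of Bub1, Ect2 and Cep55 on every knockout array.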
